A study of Mus musculus with 2 samples.

Results

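The complement components described here were 9 genes, C1qa, C1qb, C1qc, C2, C3, C4b, Hc, Cfb and Serping1, taken by gene symbol from the 32285 genes of the deposited count files, in which each symbol had 1 row. They were measured in 2 droplet libraries of mouse lung cells (10x Genomics 3′ chemistry). One library, labelled Cebpa FF, came from Cebpa fl/fl mice that carry a Cebpa allele flanked by recombination sites, and the methods name no Cre for them. The other, labelled Cebpa KO, came from Cebpa ΔSftpc mice that carry the same floxed allele and the tamoxifen-inducible Sftpc-CreERT2, which is driven from the surfactant protein C gene in alveolar type II (AT2) epithelial cells. The mice had mixed genetic backgrounds, were 3 months old by the study's methods unless stated otherwise, received 5 daily tamoxifen injections of 75 mg/kg to induce the deletion with a further weekly round where mice were studied more than 3 months later, and gave their lungs 26 weeks after the first injection. The methods name 3 mice per genotype, but the barcodes do not tell the mice apart, so each genotype was 1 library with no replicate, and every interval given here covers counting error only.

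Complement is a set of plasma and tissue proteins that tag microbes and damaged cells for removal. The classical route starts when C1q, built from the products of C1qa, C1qb and C1qc, binds a target and its proteases cleave C4 (C4b in the mouse) and C2. The alternative route uses factor B (Cfb) to amplify the cleavage of C3, on which all routes converge, and C5, the product of the mouse gene Hc, then starts the terminal route. C1 inhibitor, the product of Serping1, blocks the C1 proteases. The liver makes most of the circulating proteins, tissue macrophages are the best known makers of C1q, and C3 and C5 are also made by alveolar epithelial cells.

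Of the 9 members, C1qb, C1qc and C1qa lie side by side on the minus strand of chromosome 4 (GRCm38, GENCODE M21; 136880129 to 136898803, a stretch of 18675 bases), and C4b (34728380 to 34743882), Cfb (34856374 to 34862518) and C2 (34862604 to 34898265) share a segment of the minus strand of chromosome 17. C3 lies on chromosome 17 at 57203970 to 57228136, Hc on chromosome 2 at 34983331 to 35061438 and Serping1 on chromosome 2 at 84765387 to 84775444, all on the minus strand. Counts of C4b are uncertain to the extent that reads are shared with its near-identical copy C4a (chromosome 17, 34809092 to 34823464), which had 7 and 2 unique molecular identifiers (UMIs) in fibroblasts of the Cebpa fl/fl and Cebpa ΔSftpc libraries.

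RefSeq promoter windows on GRCm38.p6, from 250 bases before to 50 after a gene's start, matched 4 of the 9 members. C1qb (chr4:136886151-136886450) and C1qc (chr4:136892865-136893164) are shown because they are neighbours whose levels were alike over the classes of cells below. Capitals mark GAGGAA on either strand, letters that the myeloid factor PU.1 is known to bind, which 28.3% of 32851 windows of the same length held.
C1qb: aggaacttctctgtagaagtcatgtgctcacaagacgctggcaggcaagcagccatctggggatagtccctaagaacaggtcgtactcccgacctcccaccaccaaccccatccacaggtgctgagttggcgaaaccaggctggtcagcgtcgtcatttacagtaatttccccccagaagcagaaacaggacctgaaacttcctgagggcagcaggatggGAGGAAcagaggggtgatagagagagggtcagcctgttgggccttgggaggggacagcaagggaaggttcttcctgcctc
C1qc: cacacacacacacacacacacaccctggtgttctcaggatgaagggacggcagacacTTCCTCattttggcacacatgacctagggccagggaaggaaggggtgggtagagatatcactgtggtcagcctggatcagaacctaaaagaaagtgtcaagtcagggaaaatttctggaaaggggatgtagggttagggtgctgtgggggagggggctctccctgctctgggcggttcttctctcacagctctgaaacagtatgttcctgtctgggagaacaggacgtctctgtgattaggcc
C3 (chr17:57228087-57228386) and Hc (chr2:35061363-35061662) are shown because both were found in AT2 cells, the cells in which the C/EBP factor Cebpa was targeted, although fibroblasts held most of C3. Capitals mark TTNNGNAA on either strand, a loose form of the letters that C/EBP factors bind, which 40.7% of the windows held at least once and 3.6% at 3 or more places.
C3: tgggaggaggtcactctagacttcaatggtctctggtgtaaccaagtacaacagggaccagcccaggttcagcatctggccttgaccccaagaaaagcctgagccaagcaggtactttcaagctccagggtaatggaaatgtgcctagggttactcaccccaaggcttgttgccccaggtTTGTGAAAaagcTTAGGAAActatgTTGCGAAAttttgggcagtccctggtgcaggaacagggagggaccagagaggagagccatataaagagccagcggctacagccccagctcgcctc
Hc: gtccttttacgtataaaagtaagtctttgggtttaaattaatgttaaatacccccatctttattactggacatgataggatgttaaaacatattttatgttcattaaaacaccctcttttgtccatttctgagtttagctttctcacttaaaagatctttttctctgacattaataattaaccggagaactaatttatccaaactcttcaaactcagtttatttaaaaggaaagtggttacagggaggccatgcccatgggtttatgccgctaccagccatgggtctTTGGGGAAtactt
The C3 window held 3 such matches, which began 70, 58 and 45 bases before the start, and the Hc window held 1, which began 37 bases after it. The C1qc window also held 1 match to TTNNGNAA, which began 81 bases before the start and is left in lower case above. The C1qb window held 0. The matches do not overlap one another, they describe letters only, and the counts below do not bear on whether a factor is bound there.

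The limits of at least 200 genes and at most 20% mitochondrial UMIs were met by 11487 cells from Cebpa fl/fl and 13238 from Cebpa ΔSftpc lungs, with a median of 4835 and 2607 UMIs per cell and 68802017 and 64452208 UMIs in all. Cells were placed in classes by raw counts of marker genes, and the class names below stand for these gates. Cells that met more than 1 gate, 126 and 834, were kept out of the classes, and 1041 and 2117 cells met none. The depth of the classes differed between the libraries, most of all in AT2 cells, which had a median of 21036 UMIs in 452 Cebpa fl/fl cells and 1549 UMIs in 267 Cebpa ΔSftpc cells. Cebpa itself, the targeted gene, was at 154 counts per 1000000 UMIs (CPM) in Cebpa fl/fl AT2 cells and 123 in Cebpa ΔSftpc AT2 cells, a log2 ratio of -0.33 (95% interval -0.55 to -0.11). Whether the 3′ reads fall inside the deleted stretch is not given in the sources used here, so this level neither bears out nor contradicts the label. Of all barcodes, 45 sequences occurred in both libraries.

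The 9 genes came from different cells (plot of levels by class). Hc was found in AT2 cells, the C1q genes in macrophages, and C3, C4b, C2, Cfb and Serping1 in fibroblasts, while endothelial cells, the most numerous class with 7429 and 6361 cells, held every member at 31.0 CPM or less. For each gene the same class led in both libraries among the 4 classes compared, AT2, macrophage, fibroblast and endothelial. B, T and NK cells, used here to gauge the level that free RNA gives, held C3 at 23.7 and 19.1 CPM, Hc at 17.8 and 0.72 CPM and Serping1 at 3.95 and 15.3 CPM in the Cebpa fl/fl and Cebpa ΔSftpc libraries, from 12, 80, 9, 3, 2 and 64 UMIs in that order. The other 6 members were at 5.25 CPM or less in these cells of either library.

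**Figure D1:**
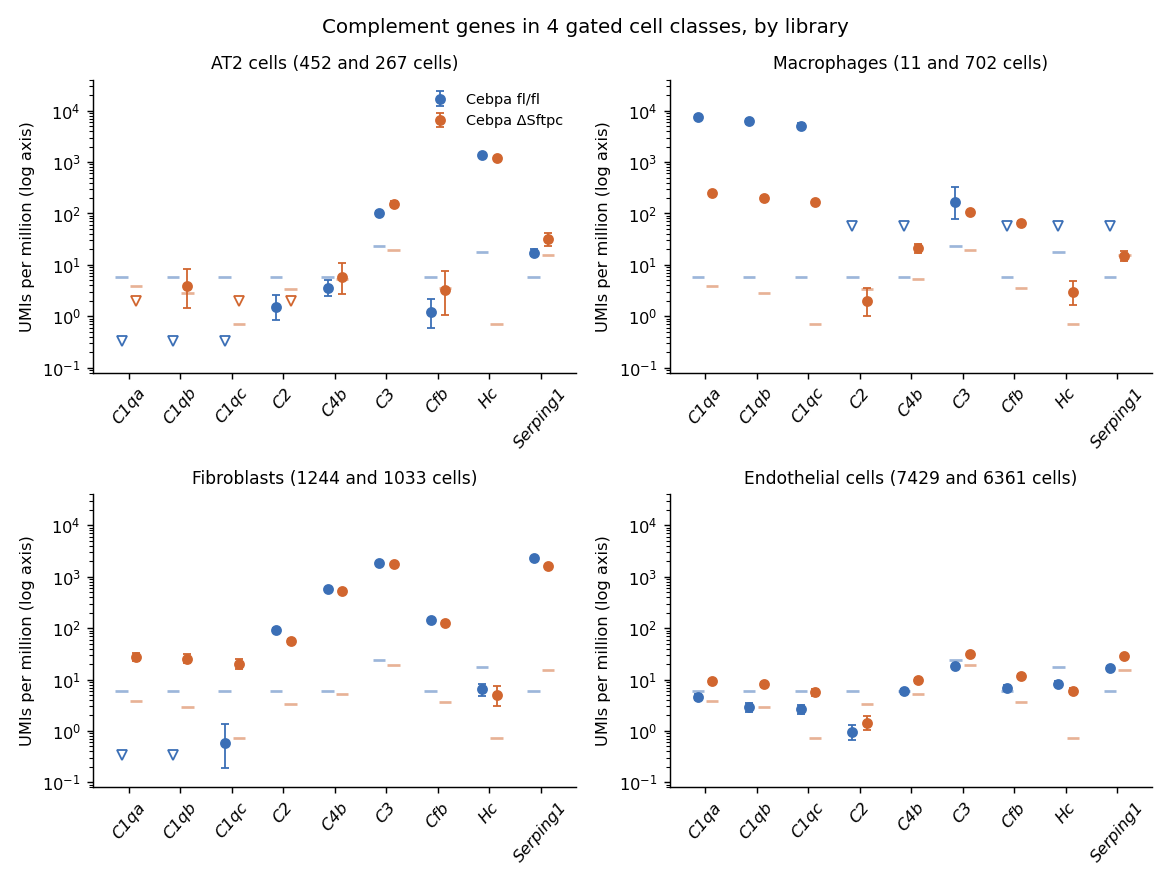
Each panel plots the 9 complement genes in 1 gated class, with CPM on a log axis, the Cebpa fl/fl library in blue and the Cebpa ΔSftpc library in orange. Points carry exact 95% Poisson intervals, open triangles mark sums of 3 UMIs or fewer, drawn at the level of 3 UMIs, and pale dashes give the level in B, T and NK cells of the same library, drawn at 3 UMIs where fewer were found. Hc stands above 1000 CPM in AT2 cells of both libraries, and Serping1 and C3 do so in fibroblasts.

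Shares of each gene's UMIs showed the same division (plot of sources). AT2 cells held 94.2% of the Hc UMIs in the Cebpa fl/fl library (95% Clopper-Pearson interval 93.8 to 94.6, 12427 of 13196) and 82.5% of those of the Cebpa ΔSftpc library (80.9 to 84.1, 1835 of 2224). Fibroblasts held 80.4% and 62.6% of C3, 78.1% and 62.3% of C4b, 74.1% and 57.2% of C2 and 85.9% and 73.0% of Serping1. Macrophages held 992 of the 1745 C1q UMIs, the 3 genes summed, of the first library and 3363 of 7005 of the second. Cfb was the gene whose sources were most divided in the Cebpa ΔSftpc library. Fibroblasts held 71.8% of it in the Cebpa fl/fl library (69.6 to 73.9) against 34.7% in the Cebpa ΔSftpc library (32.4 to 37.1), where macrophages held 22.3% and endothelial cells 23.0%. Shares follow the number and depth of the cells of each class that were captured, and an effect of the sort or of loading on those numbers cannot be told apart from one of the genotype.

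**Figure D2:**
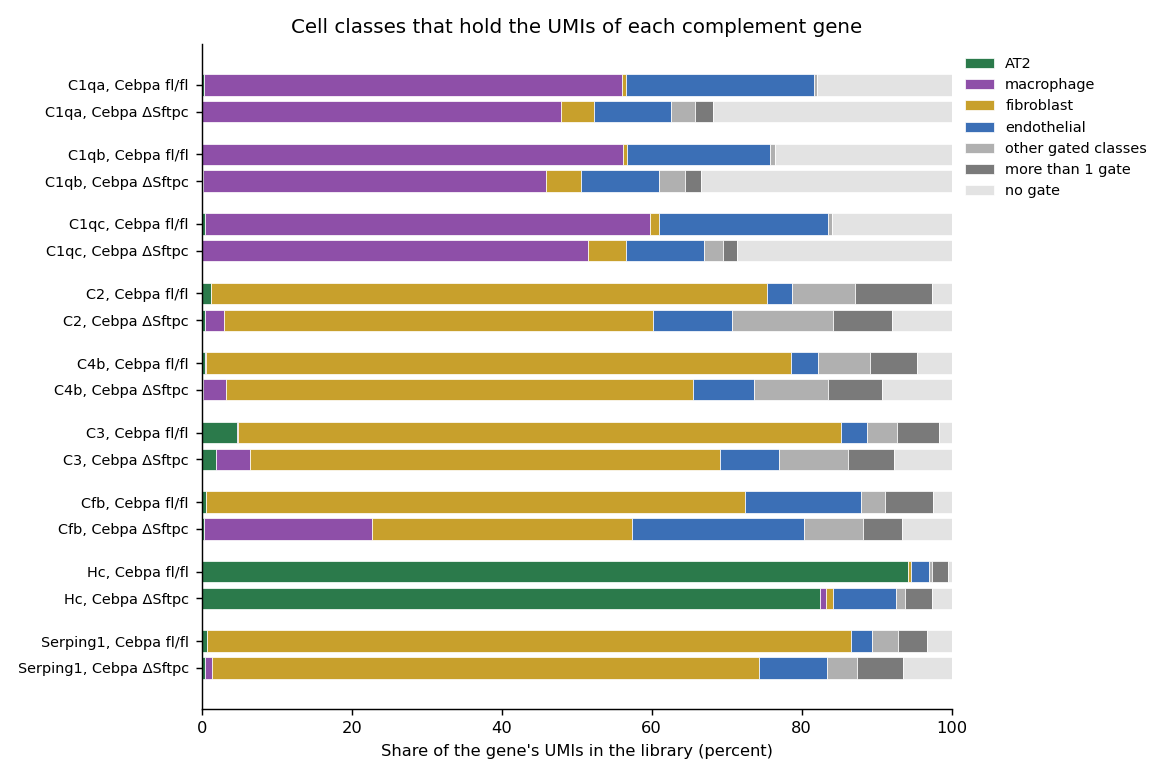
Bars give the percent of each gene's UMIs that fell in AT2 cells, macrophages, fibroblasts, endothelial cells, other gated classes, cells of more than 1 gate and cells of no gate, with 1 bar per library. Green AT2 bars fill 94.2% and 82.5% of Hc, and the fibroblast share of Cfb is 71.8% in the Cebpa fl/fl library against 34.7% in the Cebpa ΔSftpc library.

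C1qa, C1qb and C1qc encode the chains of the C1q recognition molecule. In the Cebpa fl/fl library only 11 cells met the macrophage gate, and they held C1qa at 7469 CPM, C1qb at 6237 CPM and C1qc at 5099 CPM. In the Cebpa ΔSftpc library 702 cells met the macrophage gate, and they held 250 CPM of C1qa, 203 CPM of C1qb and 164 CPM of C1qc. The number of cells changed with the gate, but the Cebpa ΔSftpc library held more under each gate tried. The looser gate named below took in 20 Cebpa fl/fl and 898 Cebpa ΔSftpc macrophages. Thresholds raised 2 times left 6 and 588, and a gate with 2 markers gave 13 and 841. The cause of this gap in cell number was not tested. The main gate pooled different macrophages in the 2 libraries. By a list of 9 interstitial macrophage markers (Ms4a7, Folr2, Cd163 and others, with no C1q gene) set against a list of 9 alveolar macrophage markers (Chil3, Ear2, Siglecf and others), 9 of the 11 and 46 of the 702 cells were interstitial, and 2 and 651 were alveolar.

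Interstitial macrophages held the C1q genes in both libraries (left panel of the plot of subsets). C1qa was at 7679 CPM (6940 to 8476) in the 9 Cebpa fl/fl cells and 4466 CPM (4215 to 4728) in the 46 Cebpa ΔSftpc cells, where it ranked 12 and 19 among all genes by level. C1qb was at 6413 and 3583 CPM, and C1qc at 5243 and 2864 CPM. Each of the 9 Cebpa fl/fl cells held between 24 and 292 C1q UMIs, with a median of 109. Of the 46 Cebpa ΔSftpc cells, 41 held at least 1, with a median of 19.5 over all 46 and a highest count of 293. Median depth was 3643 and 2305 UMIs per cell. Alveolar macrophages of the Cebpa ΔSftpc library held C1qa at 34.8 CPM, which was 128-fold below the interstitial cells beside them (log2 difference 7.003, 6.776 to 7.237), and 61.1% of their C1q UMIs sat in 9 cells.

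The log2 ratio of Cebpa ΔSftpc over Cebpa fl/fl for the 3 genes summed was -0.83 (-0.93 to -0.72) in interstitial macrophages and -4.93 (-5.03 to -4.82) in the pooled macrophage gate. It came from 992 Cebpa fl/fl UMIs in either case, against 2881 Cebpa ΔSftpc UMIs in interstitial and 3363 in all gated macrophages. The interstitial ratio rests on 9 Cebpa fl/fl cells. It was -1.89 with the gate loosened from 3 to 1 marker UMI per 1000, which took the interstitial cells to 17 and 134. In whole libraries the direction was the other way, with C1qa at 10.3 CPM in the Cebpa fl/fl library against 44.0 CPM in the Cebpa ΔSftpc library (log2 ratio 2.10, 1.98 to 2.22), while interstitial macrophages made up 0.0746% and 0.41% of all UMIs.

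The 3 C1q genes stood in similar proportions in the interstitial macrophages of both libraries, with overlapping intervals. C1qa made up 39.7% of the C1q UMIs in Cebpa fl/fl interstitial macrophages (36.7 to 42.8) and 40.9% in Cebpa ΔSftpc interstitial macrophages (39.1 to 42.7), C1qb 33.2% and 32.8%, and C1qc 27.1% and 26.2%. Alveolar macrophages, fibroblasts and endothelial cells of the Cebpa ΔSftpc library gave 37.8%, 38.1% and 40.1% for C1qa, with intervals that overlapped those of the interstitial cells. In Cebpa fl/fl cells of no gate C1qb was at 40.9% (35.7 to 46.4) and C1qa at 37.7% (32.5 to 43.1), with overlapping intervals. There 10 cells held 91.1% of the 337 C1q UMIs. In Cebpa ΔSftpc cells of no gate C1qc was at 22.6% (20.8 to 24.4) of 2211 C1q UMIs. That interval lay below the 24.6 to 27.9 of the interstitial macrophages of the same library.

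C1q UMIs outside macrophages sat in few cells in some classes and were spread in others. Of the 391 C1q UMIs in 7429 Cebpa fl/fl endothelial cells, 348 were in 3 cells with a median of 10815 UMIs and of 4 different macrophage markers. The 720 of the Cebpa ΔSftpc endothelial class lay in 337 of 6361 cells, and the 9 cells with 10 or more held 229 of them. Of the 328 in 1033 Cebpa ΔSftpc fibroblasts, 222 were in 3 cells, and 1 cell held 195. Of the 2211 in Cebpa ΔSftpc cells of no gate, 1891 were in 39 cells, of which 26 had 3 or more macrophage markers. The median over the 39 cells was 1.86 macrophage marker UMIs per 1000, under the gate's threshold of 3. In all, 22 Cebpa fl/fl and 102 Cebpa ΔSftpc cells held 10 or more C1q UMIs, of which 9 and 46 met the macrophage gate. Fibroblasts held 1.26 C1q CPM in the Cebpa fl/fl library against 73.7 in the Cebpa ΔSftpc library, and the log2 ratio of 5.87 fell to 4.26 without the cells of 10 or more C1q UMIs. Endothelial cells held 10.1 and 22.9 C1q CPM, and the log2 ratio of 1.19 became 3.82 without those cells. With the macrophage gate at 1 per 1000, the Cebpa fl/fl endothelial class held 43 C1q UMIs and the Cebpa ΔSftpc fibroblasts 109. The macrophage marker list was also higher in these classes of the Cebpa ΔSftpc library, at 0.0626 and 0.261 UMIs per 1000 in fibroblasts and 0.029 and 0.184 in endothelial cells. Of its 12 markers, 6 and 12 were found in fibroblasts and 11 and 12 in endothelial cells. B, T and NK cells showed a rise as well, with the list at 0.00197 and 0.14 UMIs per 1000 and 1 and 12 of the markers found. The part of free RNA and of doublets in the C1q levels outside macrophages was not tested.

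**Figure D3:**
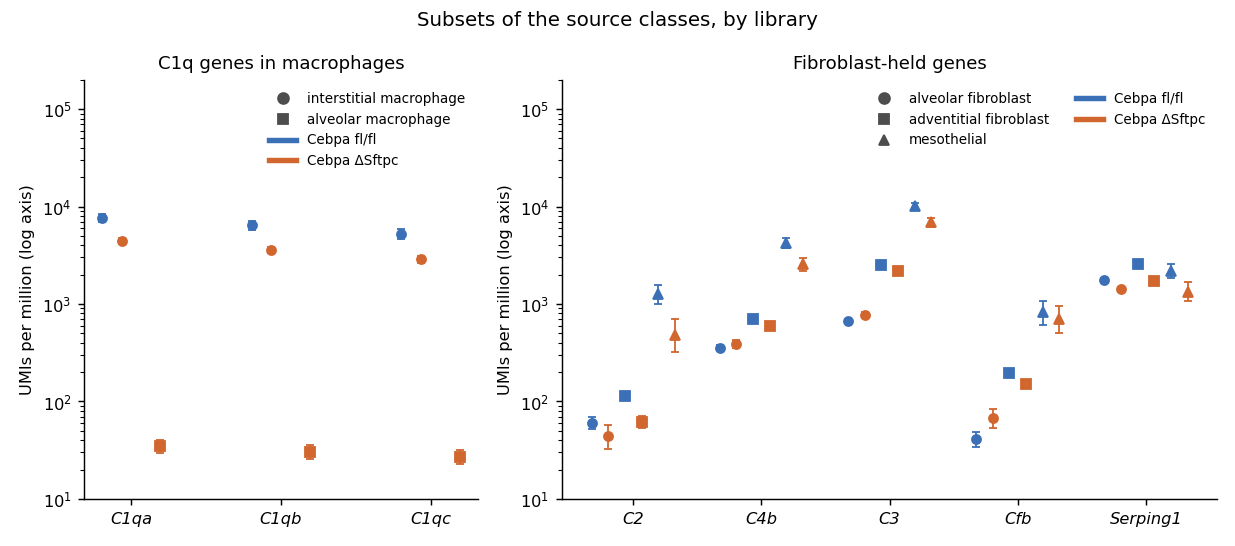
CPM on a log axis for the C1q genes in interstitial and alveolar macrophages (left) and for the fibroblast-held genes in alveolar fibroblasts, adventitial fibroblasts and mesothelial cells (right), with exact 95% Poisson intervals, by library. Sums of 3 UMIs or fewer are not drawn, which leaves out the 2 Cebpa fl/fl alveolar macrophages. Mesothelial cells lie highest for C3, C4b, C2 and Cfb in both libraries, at 10125 and 6870 CPM for C3.

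Hc encodes C5, the protein cleaved to the inflammatory fragment C5a and to C5b, which starts the membrane attack complex. In AT2 cells it was at 1353 CPM (1329 to 1377) in the Cebpa fl/fl library against 1190 CPM (1136 to 1246) in the Cebpa ΔSftpc library (log2 ratio -0.19, -0.26 to -0.11). The marker list of the AT2 gate includes surfactant genes such as Sftpc and Sftpb. The study reports reduced expression of surfactant genes in Cebpa ΔSftpc AT2 cells. These Hc levels therefore hold only for cells that met a gate set partly on surfactant genes. Hc ranked 74 and 81 among all genes in the gated AT2 cells. Endothelial cells held 8.21 and 5.95 CPM and fibroblasts 6.42 and 4.94 CPM. In the Cebpa fl/fl library both were below the 17.8 CPM of B, T and NK cells and are read as background. In the Cebpa ΔSftpc library both were above its 0.72 CPM, which came from 3 UMIs. Cells of no gate in that library held Hc at 6.79 CPM and macrophages at 2.94 CPM. Whether the endothelial and fibroblast levels exceed background there was not tested.

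The spread of Hc over AT2 cells differed more than its summed level. A UMI of Hc was found in 97.1% of the AT2 cells from Cebpa fl/fl lungs (439 of 452) and in 62.9% of those from Cebpa ΔSftpc lungs (168 of 267), which were shallower. Thinned to 1000 UMIs, with 1 and 54 shallower cells left out, the shares were 65.2% (60.6 to 69.6) and 45.5% (38.7 to 52.5), against 2.78% and 0.157% in B, T and NK cells, whose median depths were 6161 and 5990 UMIs. In the Cebpa ΔSftpc library 41 cells with 10 or more Hc UMIs held 83.3% of the Hc UMIs of the class. With each cell weighted alike, the mean CPM per cell gave a log2 ratio of -0.66, and without the 10 cells of each library richest in Hc the summed ratio was -0.48.

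In the whole libraries Hc was at 192 and 34.5 CPM, a log2 ratio of -2.47 (-2.54 to -2.41). AT2 cells gave 13.3% of all UMIs in the Cebpa fl/fl library against 2.39% in the Cebpa ΔSftpc library, and that share had a log2 ratio of -2.48. The UMI share joins cell number and depth. AT2 cells were 3.93% and 2.02% of all cells, at median depths of 21036 and 1549 UMIs. The plot of library and source ratios sets the 2 kinds of ratio side by side for every member.

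**Figure D4:**
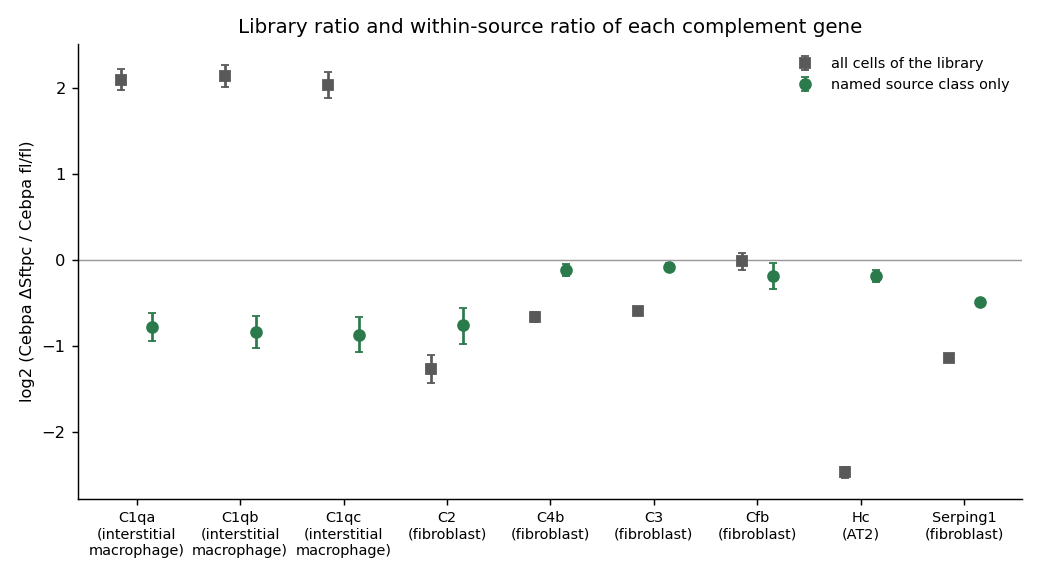
The log2 ratio of Cebpa ΔSftpc over Cebpa fl/fl for each gene over all cells (grey squares) and within its source class (green circles), with exact 95% intervals. Hc is at -2.47 over all cells and -0.19 in AT2 cells, and C1qa is at 2.10 over all cells and -0.78 in interstitial macrophages.

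C3, the protein at the centre of the cascade, was at 1846 CPM (1818 to 1875) in Cebpa fl/fl fibroblasts and 1748 CPM (1710 to 1788) in Cebpa ΔSftpc fibroblasts, a log2 ratio of -0.08 (-0.12 to -0.04). In cells with at least 3000 UMIs the ratio was 0.0038. Thinned to 1000 UMIs, C3 was found in 52.3% (49.4 to 55.2) and 49.4% (46.0 to 52.7) of fibroblasts, against 2.78% and 2.35% of B, T and NK cells. Adventitial fibroblasts, the cells around vessels and airways, held more C3 than alveolar fibroblasts in both libraries. Their levels were 2511 and 666 CPM in the Cebpa fl/fl library, 3.77-fold apart, and 2156 and 774 CPM in the Cebpa ΔSftpc library, 2.78-fold apart. The ratio between libraries thus had opposite signs in the 2 subsets, at -0.22 (-0.26 to -0.18) in adventitial and 0.22 (0.10 to 0.33) in alveolar fibroblasts. The 10 richest alveolar fibroblasts held 14.6% of that subset's C3 UMIs from Cebpa fl/fl lungs, against 34.9% from Cebpa ΔSftpc lungs. After thinning, C3 was found in 40.6% (36.5 to 44.9) and 36.6% (30.7 to 42.9) of alveolar cells, so this share was not higher in the second. In adventitial cells the thinned shares were 62.4% and 55.5%. The alveolar ratio without its richest cells was not tested.

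AT2 cells were a smaller source of C3, at 104 CPM (97.3 to 111) in the Cebpa fl/fl library against 150 CPM (132 to 171) in the Cebpa ΔSftpc library (log2 ratio 0.54, 0.32 to 0.74). Both levels lay above the 23.7 and 19.1 CPM of B, T and NK cells. The 10 AT2 cells richest in C3 held 14.8% of its Cebpa fl/fl UMIs and 51.3% of its Cebpa ΔSftpc UMIs. Without these cells the ratio was -0.03. They were chosen by their C3 counts, so this fall does not show that the difference rested on few cells. After thinning to 1000 UMIs, the shares of AT2 cells with C3 were 7.32% (5.09 to 10.1) and 12.2% (8.13 to 17.4). These intervals overlap. The ratio kept its sign in 13 of 14 alternative settings. The fibroblast marker list in AT2 cells was at 0.132 and 0.362 UMIs per 1000, with all 12 markers found in both libraries. The macrophage list there was at 0.0111 and 0.164 (4 and 10 of 12 markers found), the neutrophil list at 0.0138 and 0.684 (6 and 9 of 9) and the erythroid list at 0.0246 and 0.416 (5 and 5 of 7). In B, T and NK cells the fibroblast list was at 0.101 and 0.127 and the macrophage list at 0.00197 and 0.14. The neutrophil list in them was at 0.0118 and 0.293 and the erythroid list at 0.0632 and 0.108. The part of fibroblast, macrophage, neutrophil and erythroid RNA in the C3 difference was not tested. Cebpa fl/fl macrophages held C3 at 171 CPM from 9 UMIs, and Cebpa ΔSftpc macrophages at 105 CPM from 571. Monocytes of the Cebpa ΔSftpc library held 231 CPM (204 to 261) in 100 cells, and its 10 airway secretory cells held 316 CPM. Endothelial cells held 18.0 and 31.0 CPM, the first below and the second above the level in B, T and NK cells. The log2 ratio of 0.79 came to 0.07 in cells with at least 3000 UMIs, the lowest of the alternative settings, and to 1.45 in the highest. Thinned to 1000 UMIs, C3 was found in 1.85% (1.55 to 2.19) and 4.87% (4.33 to 5.46) of endothelial cells. The shares in B, T and NK cells were 2.78% and 2.35%.

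C4b and C2 encode the proteins that together form the classical C3 convertase. C4b was at 579 CPM (563 to 595) in Cebpa fl/fl and 535 CPM (514 to 557) in Cebpa ΔSftpc fibroblasts, a log2 ratio of -0.11 (-0.18 to -0.04). It was higher in adventitial than in alveolar fibroblasts, with 697 and 357 CPM in the Cebpa fl/fl library, next to 594 and 386 CPM in the Cebpa ΔSftpc library. Smooth muscle cells and pericytes, gated as 1 class, also held C4b, at 91.1 and 165 CPM. C2 was the member with the lowest ratio in fibroblasts, at 93.8 CPM (87.5 to 100.4) and 55.3 CPM (48.6 to 62.6), a log2 ratio of -0.76 (-0.97 to -0.56). Its ratio was -0.88 in adventitial and -0.46 in alveolar fibroblasts. Thinned to 1000 UMIs, with 66 and 150 shallower cells left out, C2 was found in 7.22% (5.80 to 8.85) and 4.98% (3.64 to 6.63) of fibroblasts, whose intervals overlap, and unthinned in 28.7% and 13.8%. In B, T and NK cells the thinned shares of C2 were 0 of 72 cells (exact upper limit 4.99%) and 1.26%.

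Cfb, the protease of the alternative convertase, was at 142 CPM (134 to 150.0) in Cebpa fl/fl and 125 CPM (115 to 135) in Cebpa ΔSftpc fibroblasts, a log2 ratio of -0.19 (-0.33 to -0.04). Its ratio was 0.01 in the mean CPM per cell. Cfb showed the widest gap between fibroblast subsets in the Cebpa fl/fl library, 197 CPM in adventitial and 41.1 CPM in alveolar cells, 4.80-fold apart. In the Cebpa ΔSftpc library the levels were 150 and 67.2 CPM, 2.23-fold apart. The ratio between libraries was thus -0.40 (-0.55 to -0.24) in adventitial and 0.71 (0.29 to 1.12) in alveolar fibroblasts. The alveolar ratio rests on 127 Cebpa fl/fl and 83 Cebpa ΔSftpc UMIs. Of these, the richest cells, counted as for C3, held 23.6% and 41.0%. After thinning, Cfb was found in 4.04% (2.55 to 6.06) and 5.91% (3.34 to 9.55) of alveolar cells. These intervals overlap, so a higher share was not shown. In adventitial cells the thinned shares were 16.7% (13.9 to 19.9) and 12.2% (9.65 to 15.2). The alveolar ratio without its richest cells was not tested.

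Alveolar macrophages of the Cebpa ΔSftpc library held 68.7 CPM of Cfb (61.7 to 76.2), spread over 152 of 651 cells, and its interstitial macrophages held 2 UMIs in 46 cells. Among B, T and NK cells of that library Cfb was at 3.58 CPM. No Cfb UMI was found in the 11 Cebpa fl/fl macrophages, for which the exact Poisson upper limit was 69.9 CPM, above the 65.6 CPM of the Cebpa ΔSftpc macrophages, so a difference between the libraries was not detectable at that depth. Over whole libraries Cfb was at 25.0 and 24.8 CPM, and it was the member whose library levels lay closest together (log2 ratio -0.01, -0.11 to 0.09).

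Serping1 encodes C1 inhibitor, the plasma brake on the C1 proteases. Fibroblasts held it at 2292 CPM (2261 to 2324) in the Cebpa fl/fl library against 1627 CPM (1589 to 1665) in the Cebpa ΔSftpc library (log2 ratio -0.49, -0.53 to -0.46), and its rank among all fibroblast genes was 34 and 73. Subsets differed less for Serping1 than for C3 or Cfb, with 2585 CPM in adventitial and 1770 CPM in alveolar fibroblasts of the Cebpa fl/fl library, next to 1732 and 1432 CPM in the Cebpa ΔSftpc library. A UMI was found in 94.7% and 75.9% of fibroblasts, and after thinning in 80.5% (78.1 to 82.7) and 60.02% (56.7 to 63.3), against 0 of 72 and 2.67% in B, T and NK cells. Fibroblasts had median depths of 6746 and 1799 UMIs. Serping1 was also held by smooth muscle cells and pericytes, at 326 and 208 CPM. Endothelial cells held 16.9 and 28.5 CPM, a log2 ratio of 0.75, beside the 3.95 and 15.3 CPM of B, T and NK cells, the first from 2 UMIs. AT2 cells held 17.3 and 31.8 CPM, of which 10 cells gave 62.3% and 69.4%.

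Mesothelial cells, the lining of the lung surface, were few but held 4 of the members at the highest level of any class. In 10 Cebpa fl/fl and 11 Cebpa ΔSftpc cells C3 was at 10125 CPM (9364 to 10931) and 6870 CPM (6221 to 7568), C4b at 4220 and 2547 CPM, C2 at 1268 and 486 CPM, and Cfb at 819 and 704 CPM. C3 was thus 5.48-fold and 3.93-fold above fibroblasts of the same library, and C2 13.5-fold and 8.79-fold. Serping1, at 2195 and 1340 CPM, was 0.958 and 0.824 times its fibroblast level. In the Cebpa ΔSftpc library 2 of the 11 cells held 93.2% of the C3 UMIs, and 7 of the 10 Cebpa fl/fl cells held 10 or more.

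Members were counted past a 2-fold difference beside all genes of a class with at least 50 UMIs over both libraries, and with 1 library per genotype this is a count of sizes and not a test. In AT2 cells 3 members reached 50 UMIs and 0 differed 2-fold, where 4.31% of 9802 genes were higher and 0.877% lower in the Cebpa ΔSftpc library. In fibroblasts 3 of 9 members, the C1q genes, were at least 2-fold higher and no member lower, where 3.6% of 11512 genes were higher and 0.886% lower. In endothelial cells the same 3 of 9 were at least 2-fold higher and no member lower, where 5.86% of 13560 genes were higher and 0.959% lower. In macrophages 7 members reached 50 UMIs, 3 were at least 2-fold lower (the C1q genes) and 0 higher, where 8.7% of 8754 genes were lower and 5.92% higher and 4670 gave no ratio because a sum was too low. The median log2 ratio of the members that reached 50 UMIs was 0.54 in AT2 cells, -0.11 in fibroblasts, 0.77 in endothelial cells and -4.90 in macrophages (5 with a ratio), beside 0.13, 0.01, 0.02 and 0.00 for all genes. In macrophages the median of all genes leaves out the 4670 without a ratio, while the 8.7% and 5.92% are shares of all 8754. The macrophage values also pool unlike mixes of subsets. In interstitial macrophages alone C1qa, C1qb and C1qc were at -0.78, -0.84 and -0.87, short of 2-fold.

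Genes whose pattern over the 16 gated classes of both libraries (32 points that share their libraries) came closest to each member are given as Pearson r of log2(CPM + 10), as a description over 13624 genes. For C1qa they were C1qc (0.99), C1qb (0.97) and Ms4a7 (0.95), the last a macrophage marker used in the gate. For Hc they were Pla2g1b (0.97), Tmem132d (0.96) and Fabp12 (0.96). For C2 they were Podn (0.99), Bnc2 (0.98) and Tenm3 (0.98), for C4b Gas1 (0.97), Gabra3 (0.96) and Cd248 (0.96), and for Serping1 the protease gene C1ra (0.96), Cd248 (0.96) and Gas1 (0.95). C3 had the weakest likeness, with Cfb (0.85), Has1 (0.84) and Bnc2 (0.84), and Cfb was most like Tpbgl (0.94), Bnc2 (0.92) and Tenm3 (0.92).

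The rest of the pathway was read from a list of 50 other complement genes, of which 45 had more than 3 UMIs in a library and 19 reached 50 CPM in 1 of the 4 classes. The C1 proteases lay with their inhibitor in fibroblasts, C1ra at 386 and 287 CPM and C1s1 at 565 and 476 CPM. The terminal component C7 was in fibroblasts at 252 and 160 CPM, and C6 in AT2 cells at 90.0 and 90.1 CPM. Among the 4 classes, clusterin (Clu), a terminal pathway inhibitor, was highest in endothelial cells at 395 and 380 CPM. Colec12, a scavenger receptor of the collectin family, was in fibroblasts at 507 and 401 CPM, and the membrane regulators Cr1l (Crry) and Cd55 were at 171 and 155 CPM in endothelial cells and 82.2 and 81.5 CPM in fibroblasts.

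Among the 4 classes compared, receptors and properdin lay mostly in macrophages, where the Cebpa fl/fl level rests on 11 cells. Levels of these genes in other gated classes, such as neutrophils and monocytes, are not given here. In macrophages of the Cebpa fl/fl and Cebpa ΔSftpc libraries the C5a receptor C5ar1 was at 133 and 173 CPM, the C3a receptor C3ar1 at 190 and 18.6 CPM, the integrin chain Itgam at 190 and 41.7 CPM and properdin (Cfp) at 209 and 76.1 CPM, with 7, 10, 10 and 11 UMIs behind the first value of each. Cebpa ΔSftpc macrophages held the integrin chains Itgb2 and Itgax at 513 and 356 CPM, and Cebpa fl/fl macrophages held 1 UMI of each. These pairs set unlike macrophages side by side. Of the 11 Cebpa fl/fl cells 9 were interstitial, and of the 702 Cebpa ΔSftpc cells 651 were alveolar. The part of this mix in the gaps was not tested. Of the 4 classes compared, Cd93 was highest in endothelial cells at 930 and 828 CPM and Lrp1 in fibroblasts at 750 and 680 CPM. C1qbp lay between 35.7 and 94.8 CPM in all 4 classes, and the ficolin Fcna had 4 and 9 UMIs in macrophages. Of the genes of this list with at least 50 UMIs in a class, 4 of 14 were at least 2-fold higher and 0 lower in AT2 cells. In fibroblasts 3 of 18 were higher and 1 lower, in endothelial cells 7 of 22 and 0, and in macrophages 3 of 15 and 5. These counts are to be read beside the shares of all genes given above. The 22 endothelial genes included C5ar1, Itgam, Itgax, Itgb2 and Cfp, named above in macrophages. The neutrophil marker list was at 0.012 and 0.538 UMIs per 1000 in endothelial cells, 0.0138 and 0.684 in AT2 cells and 0.0118 and 0.293 in B, T and NK cells. The part of such RNA in these counts was not tested.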

How the data were processed

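Single lung cells of 2 libraries were sequenced by 10x Genomics 3′ chemistry. The deposited files hold raw UMI counts per gene and barcode that the authors made with Cell Ranger (6.1.1 in the submitters' processing notes, 5.0.0 in the file headers) on mm10; how reads shared by near-identical genes were treated is not given in the sources used here. The series text names a sort for live cells and the study's methods a whole-lung suspension, and these differ on what was loaded.

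Cells were kept from 200 genes up and to 20% mitochondrial UMIs, the study's own limits. A cell joined a class when at least 3 of its markers were found and they made up a set share of its UMIs (50 per 1000 for AT2, 3 for macrophages, 6 for fibroblasts, 10 for endothelial cells). The thresholds were set on the markers' own distributions in these data. Macrophages and fibroblasts were split by which of 2 marker lists held more UMIs. No doublet caller was run. Counts were summed per class and library and divided by all UMIs of the class (CPM), with exact Poisson intervals, Clopper-Pearson intervals for shares and exact conditional intervals for ratios, all at 95%. A sum under 3 UMIs was raised to 3 in ratios, and no ratio was given where that set its direction. With 1 library per genotype no test was run. The ratio script was tested on simulated data. Python 3 tools numpy, pandas and scipy were used.

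The members and all lists were chosen with earlier results of these data known. The text names every member in the 4 classes, other complement genes at 50 CPM or more in 1 of them, and the 3 genes most like each member. Some genes that this rule names are not reported here. Gene positions are from GENCODE M21.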

Additional observations from a re-analysis of the deposited data

Results flagged for a closer look

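Differences between classes in the direction of the ratio were marked where the counting interval lay above 0 in 1 class and below 0 in another. With 1 library per genotype none of these differences was tested. For C1qa, C1qb and C1qc the log2 ratio in fibroblasts exceeded that in macrophages by 11.3, 11.2 and 10.1. The macrophage gate held 9 interstitial of 11 cells for Cebpa fl/fl against 46 of 702 for Cebpa ΔSftpc, and 3 fibroblasts held 222 of the 328 C1q UMIs of their class.

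C3, C4b, Cfb and Serping1 had a higher ratio in endothelial cells than in fibroblasts, by 0.87, 0.85, 0.96 and 1.25 on the log2 scale. The endothelial ratios moved widely under the alternative settings described below. They ranged from 0.07 to 1.45 for C3, 0.06 to 1.48 for C4b, 0.24 to 1.26 for Cfb and -0.10 to 1.38 for Serping1. The fibroblast marker list in endothelial cells was at 0.157 UMIs per 1000 for Cebpa fl/fl against 0.302 for Cebpa ΔSftpc, with all 12 markers found in both. In B, T and NK cells it was at 0.101 and 0.127. The part of fibroblast RNA in these ratios was not tested.

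Cells that met no gate held more C1qa, C1qb, C1qc and C3 in the Cebpa ΔSftpc library than in the Cebpa fl/fl library. Their levels in the Cebpa ΔSftpc library were 106, 94.7, 58.4 and 113 CPM, against 35.1, 38.1, 19.9 and 92.1 CPM.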

How the results depend on the processing

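The ratios of the 4 leading gene and class pairs were recomputed under 14 alternatives, and under 12 for C1q in interstitial macrophages, which were not centred on all genes and had too few cells to leave 10 out. Hc in AT2 cells had a log2 ratio of -0.19 and stayed below 0 in all of them. It was -0.11 for cells from 500 genes up and to 10% mitochondrial counts, -0.075 in cells with at least 3000 UMIs, -0.27 without hemoglobin, Sftpc, Scgb1a1 and mitochondrial counts in the denominator, -0.66 as mean CPM per cell and -0.31 centred on the median of all genes. Among settings chosen after seeing the data it was -0.31 with the AT2 gate at 20 per 1000, which took the cells to 484 and 333. It was -0.011 with all gate thresholds raised 2 times and -0.48 without the 10 richest cells of each library. C3 in fibroblasts (-0.08) was 0.0038 in cells with at least 3000 UMIs, -0.13 with cells of more than 1 gate kept, 0.0022 with raised thresholds and -0.20 without the 10 richest cells. Serping1 in fibroblasts (-0.49) was -0.36, -0.54, -0.43 and -0.54 under the same settings and -0.76 as mean CPM per cell. C1q in interstitial macrophages (-0.83) was -1.89 with the macrophage gate at 1 per 1000, -1.78 with raised thresholds, which left 3 and 4 cells, and -1.16 as mean CPM per cell. The cause of these moves was not tested. Other ratios of a member in a class stayed within their counting interval 357 times and left it 96 times, and none past 2-fold changed sign. The first count includes settings that could not move a ratio. Leaving out C1q-rich cells outside macrophages did not touch the macrophage ratios, and the looser AT2 gate left the interstitial macrophages unchanged. Below 2-fold, Serping1 in AT2 cells was 0.88 and became -1.005 with raised thresholds. The sign also changed under 1 or more settings for C4b in AT2 cells, Serping1 and C2 in endothelial cells, Hc and Cfb in fibroblasts, and C3 in AT2 cells and interstitial macrophages. Ratios after subtraction of free RNA are imprecise where the Cebpa fl/fl B, T and NK cells held 3 or fewer UMIs of a gene, which was so for every member but C3 and Hc. The share of genes at least 2-fold higher in the Cebpa ΔSftpc library was 4.31% in AT2 cells with at least 50 UMIs per gene, 1.43% with 200 and 10.4% with 1, and in macrophages it was 5.92%, 11.6% and 3.77%, in fibroblasts 3.6%, 1.78% and 9.14%, and in endothelial cells 5.86%, 2.83% and 10.3%.

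No paired analysis was possible because each genotype had 1 library. Without replicates the spread between mice is unknown, and the 11 Cebpa fl/fl macrophages, with 52752 UMIs, limit every macrophage ratio.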
